A study of Mus musculus with 51 samples.

Results

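The unnamed control spots are 864 of the 16896 spots of a 2-colour spotted array. They lie at block positions 22, 45, 66, 89, 110, 154, 177, 221 and 309, and at the spot 22 positions after each of these, in every one of 48 print blocks of 352 spots. The members were chosen by position alone. None of the 864 spots is listed in the platform annotation, so none has a gene symbol, an accession or a sequence here, and "control" is a working name taken from the layout and not from a label. The spots of a pair were averaged and the average is called a probe, so that each of the 9 control positions has 48 probes, 1 in each block.

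All 51 arrays carried labelled RNA from CRL1606, a hybridoma of mouse B cells from the American Type Culture Collection, which secretes a monoclonal antibody against human fibronectin. Both channels of every array held RNA of this line. Spiked arrays received 100 genes in channel 1 and another 100 in channel 2, all at the same amount. No spike was added to 6 arrays (0 pmol), the amounts 0.05, 0.1, 0.25, 0.5 and 0.75 pmol had 6 arrays each, and 0.025, 0.15, 0.2, 1 and 2 pmol had 3 arrays each. Which genes were spiked is not known here. The replicates are not said to come from separate cultures, so every p-value reflects only how far these arrays differ, and that difference may be technical. Because both channels held the same cell line, a ratio cannot be used to check markers of the hybridoma.

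Control spots on printed arrays serve several purposes. Empty or buffer spots and foreign DNA give the signal that no matching target produces, spots of an abundant transcript or of labelled DNA mark the corners of a block for the scanner software, and a probe printed in every block samples the whole surface of the slide. In a self-hybridisation, a probe that binds the labelled RNA equally in both channels is centred on the same ratio as the other spots. A dim spot divides small numbers by small numbers, and its log ratio scatters widely. No source used here says which of these kinds each position holds.

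All 9 positions lie at an edge of the block. With 22 columns and 16 rows to a block, positions 45, 89, 177, 221 and 309 are in column 1, and positions 22, 66, 110 and 154 are in column 22. Column 1 also holds the control genes Gapdh (glyceraldehyde-3-phosphate dehydrogenase, an enzyme of glycolysis) at position 133 and Pdia3 (a protein disulfide isomerase of the endoplasmic reticulum) at position 265, each repeated in all blocks. Position 1 in column 1 and positions 198, 242, 286 and 330 in column 22 hold different genes from block to block. These 7 positions served as comparators on the same edges.

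The control spots were measured less often and less evenly than the rest of the array. Over all arrays, 7.37% of their 44064 values were missing, against 3.04% of the values of the other spots. Values at the upper limit of the file, 116 and 958, are not counted in these shares. The median absolute difference between the spots of a pair was 0.30 for control positions and 0.15 for the other spots, in log2 units. Of the measured values, 10.2% of those of control spots and 6.76% of those of other spots equalled, to 3 decimals, log2 of a ratio of whole numbers of 10 or less. The edge position 1, which holds genes, had 13.3% missing values and a pair difference of 0.56, so its values were no better than those of most control positions. Gapdh, with 7.27% missing values, 10.4% small ratios and a pair difference of 0.30, was close to the control spots as a whole. The edge gene positions 198, 242, 286 and 330 had 5.68% to 6.64% missing values and pair differences of 0.33 to 0.39. Pdia3 had 4.62% missing values and a pair difference of 0.15. These measures were therefore not particular to the control spots among the edge positions.

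Within the control positions these measures separated the members. Position 22 had the most missing values, 18.8%, and lost more than 50% of its spots on 5 arrays. Position 45 had the largest share of values equal to small whole-number ratios, 18.5%, and position 89 followed with 15.2%. Position 309 stood at the other end, with 1.21% missing values, 2.54% small ratios and a pair difference of 0.14. Position 221 had a pair difference of 0.15, the same as Pdia3 (0.15) and below Gapdh (0.30). The pair difference was largest at position 45 (0.56), followed by 89 (0.47), 66 (0.46) and 22 (0.45).

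The arrays differed in how much of the table was measured, from 8376 to 16869 spots (median 16715). Those at 1 pmol were the sparsest, with 13.5%, 50.4% and 30.5% of all spots missing in replicates 1, 2 and 3, and 19.4%, 51.04% and 34.3% of control spots. Every value below is a log2 ratio after each array was centred on the median of its other spots, and that median ran from -3.33 to 0.95 in the deposited table. The level of a position on an array is the median of its pair means over the blocks, with at least 10 blocks required, and its spread is the standard deviation over the blocks. No source used here gives the channel in the numerator, so a level is called positive or negative only. Each amount was compared with the same 6 arrays at 0 pmol, which makes the 10 comparisons dependent on one another.

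Position 309 was the most positive position of the array. Its level was above 0 on 46 of 51 arrays and the highest of all pair positions of a block on 43 of them. At 0 pmol, with no spike on the array, replicates 1 to 3 read 6.72, 6.73 and 6.57 and replicates 4 to 6 read 3.85, 4.80 and 4.71. All 6 values were far above 0, and the first 3 did not overlap the last 3. The mean was 5.56 ± 1.26 (SD, n = 6), which differed from 0 (limma adjusted p = 9.46e-08), and it kept that call under all 15 other settings in which it was computed and without any single array. Of all position levels, 19.3% differed from 0 at 0 pmol, among them position 309 and position 22 but none of the other 7 control positions.

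Among spiked arrays, position 309 spanned the range from near 0 to the 0 pmol level. The values at 0.025 pmol were 5.91, 4.85 and 6.29, and those at 1 pmol were 4.54, 5.48 and 4.57, both groups close to the 0 pmol arrays. At 0.15 pmol they were 1.44, 5.92 and 6.01 and at 0.2 pmol 4.27, 1.16 and 6.92, so that 1 array of 3 was low in each group. At 0.1 pmol the lowest, median and highest of 6 were 3.08, 4.22 and 4.53, at 0.25 pmol 0.95, 3.43 and 6.50, and at 0.5 pmol 0.71, 3.09 and 5.55. Groups of intermediate amount therefore overlapped widely. Replicates 1 to 3 at 0.05 pmol read 4.69, 4.42 and 4.27, while replicates 4 to 6 read -0.74, -0.18 and -0.37. The same break occurred at 0.75 pmol, where replicates 1 to 3 read 2.80, 3.58 and 3.94 and replicates 4 to 6 read 0.14, -0.34 and -0.61. These 6 arrays of replicates 4 to 6 held all 5 negative levels of the position. At 2 pmol the values were 2.15, 1.11 and 0.76, all below the lowest 0 pmol array.

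Against 0 pmol, position 309 fell at 0.75 pmol by 3.98 ± 1.03 (SE), with a limma adjusted p of 0.00923, and at 2 pmol by 4.23 ± 1.26, with an adjusted p of 0.0245. It was the only control position called at these amounts, where 6.25% and 7.39% of all position levels were called. The fall at 0.75 pmol was -4.72 with replicates 4 to 6 of both amounts (adjusted p = 0.0042) and -3.23 with replicates 1 to 3 (adjusted p = 0.117). Against 0 pmol replicates 4 to 6 alone both falls lost their call, at -2.87 (adjusted p = 0.143) and -3.12 (adjusted p = 0.189). The fall at 2 pmol also lost it without replicate 1, 2 or 3 at 2 pmol (-3.93 to -4.63, adjusted p 0.0575 to 0.132). The mean at 0.05 pmol was lower by a similar amount, 2.01 ± 2.69 (SD, n = 6) against 5.56, but its arrays were split as described and the difference did not pass the test (adjusted p = 0.222). When the arrays were put into 6 sets by the likeness of their other probes, with the most extreme probes left out, and the set was added to the model (a choice made after the data were seen), the differences were -2.0 at 0.75 pmol (adjusted p = 0.0874) and -0.36 at 2 pmol (adjusted p = 0.966). No array at 2 pmol was in the set of the 0 pmol arrays, so the difference at 2 pmol was reached only through other amounts. Set C, which is exactly replicates 4 to 6 at 0.05 and 0.75 pmol, had a mean level of -0.35 ± 0.31 (SD, n = 6) at position 309, and no array of the other 5 sets had a negative level there.

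Position 22 was the most negative position. Its level was below 0 on 49 of the 50 arrays with enough blocks and was the lowest of all positions on 27. The levels fell into separate ranges: 23 arrays were at -3.88 or lower, 27 at -1.79 or higher, and none between. The values at 0.025 pmol were -5.15, -4.48 and -4.31, those at 0.15 pmol -6.26, -6.59 and -6.13, and those at 0.2 pmol -4.76, -6.03 and -6.20. All 9 of these arrays were in the low range, and all arrays at 0.75 pmol (-0.75 to -0.12) and 2 pmol (-1.44 to -0.84) in the high range.

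The other amounts with 6 arrays were divided by replicate number at position 22. At 0 pmol, replicates 1 to 3 read -3.88, -5.15 and -4.51 and replicates 4 to 6 read -1.51, -1.15 and -1.07. At 0.05 pmol the first 3 read -6.30, -6.32 and -6.00 and the last 3 -0.72, -0.52 and -0.49. At 0.1 pmol they read -5.65, -5.05 and -5.44 against -0.01, -0.17 and -0.19. At 0.5 pmol the order was turned, with -1.79, -0.81 and -0.79 in replicates 1 to 3 and -7.36, -8.36 and -9.69 in replicates 4 to 6, the lowest values of any control position. At 0.25 pmol replicates 1 to 3 were in the high range (-0.81, -1.51 and -0.40), replicate 4 was at -1.69, and replicates 5 and 6 were at -4.65 and -5.86. The mean of replicates 4 to 6 minus that of replicates 1 to 3 at 0.5 pmol was -7.34, although the labels give all 6 arrays the same treatment.

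The 0 pmol mean of position 22, -2.88 ± 1.84 (SD, n = 6), differed from 0 (limma adjusted p = 0.0286). That call was lost without replicate 1, 2 or 3 at 0 pmol (-2.43 to -2.68, adjusted p 0.0764 to 0.0985). The differences from 0 pmol at 0.15 pmol (-3.45, adjusted p = 0.153) and 0.2 pmol (-2.79, adjusted p = 0.307) did not pass the test. The only call was at 1 pmol, where the difference was 4.39 ± 1.92 (SE, adjusted p = 0.0458) and 59.7% of all position levels were called. It rested on 2 arrays, -0.75 and 3.78, since replicate 2 had values in only 2 blocks, and it was lost without replicate 1, 2 or 3 at 0 pmol or replicate 2 at 1 pmol (3.94 to 4.39, adjusted p 0.0519 to 0.0765).

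Position 66, in the same column and 2 rows below, followed position 22 more closely than any other position did (Pearson r = 0.92 over 51 arrays, Spearman rho = 0.92, with position 22 missing on 1 array). The correlation is a description, since all positions of an array share its hybridisation and centring. Its levels were less extreme, with a median of -0.84 over the 51 arrays and a range from -7.16 to 0.89. At 0 pmol it lay between -1.69 and -0.60, at 0.15 pmol it read -2.85, -3.35 and -2.61, and at 0.025 pmol -2.82, -1.72 and -2.46. Replicates 4 to 6 at 0.5 pmol read -3.54, -5.60 and -7.16 and replicates 1 to 3 -0.70, -0.05 and -0.37, the same division as at position 22. No difference of position 66 from 0 pmol passed the test at any amount.

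Positions 110 and 154, also in column 22, lay on both sides of 0 without a spike and were negative on most arrays, 45 and 38 of 51. The gene positions of that column were negative about as often. The counts were 44 of 50 arrays at position 198, 44 of 51 at 242, and 42 of 50 at both 286 and 330. At 0 pmol position 110 read from -0.21 to 0.58 with a median of 0.21, while position 154 read 0.82 to 1.02 in replicates 1 to 3 and -0.88 to -0.66 in replicates 4 to 6. At 0.15 pmol position 110 read -1.81, -2.45 and -2.06, below every 0 pmol array, and position 154 read -1.78, -2.85 and -2.56. The differences were -2.29 ± 0.60 (SE, limma adjusted p = 0.00975) and -2.48 ± 0.72 (adjusted p = 0.02). The background rate at 0.15 pmol was 15.3% of position levels, and these were the control positions called. Position 110 lost its call there without replicate 2 at 0.15 pmol (-2.12, adjusted p = 0.0534), and position 154 without replicate 2 or 3 (-2.25 and -2.39, adjusted p 0.0839 and 0.0698).

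At 0.5 pmol replicates 1 to 3 of position 110 read -0.48, -0.99 and -1.13, and replicates 4 to 6 read -2.56, -3.53 and -5.66. Position 154 read -0.77, -0.16 and -0.20 in replicates 1 to 3, and -2.75, -3.77 and -5.68 in replicates 4 to 6. All 6 arrays of position 110 were below every 0 pmol array, whereas replicates 1 to 3 of position 154 overlapped the 0 pmol arrays. The differences from 0 pmol were -2.58 ± 0.49 (SE, adjusted p = 0.000206) and -2.30 ± 0.58 (adjusted p = 0.00339), and both calls held when any single array was left out. Of all position levels, 21.6% were called at this amount. Against 0 pmol replicates 4 to 6 alone position 110 kept its calls at 0.15 and 0.5 pmol, and position 154 lost both (-1.66, adjusted p = 0.153, and -1.48, adjusted p = 0.133). Position 154 at 0.5 pmol also lost its call when fitted with 0 pmol on its own (adjusted p = 0.105). With replicates 1 to 3 of both amounts alone the differences were -1.39 (adjusted p = 0.00302) and -1.27 (adjusted p = 0.0118), and with replicates 4 to 6 alone -3.76 and -3.33. Without centring they were -0.55 (adjusted p = 0.272) and -0.27 (adjusted p = 0.604), so that these calls are of levels relative to the other spots of the array. With the array sets in the model they were -2.20 and -2.07, with adjusted p of 0.378 and 0.389. No array at 0.5 pmol was in the set of the 0 pmol arrays, so these 2 values were reached only through other amounts.

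The gene positions of column 22 moved with these control positions. The mean of positions 198, 242, 286 and 330 was -0.40 ± 0.77 at 0 pmol (SD, n = 6), -1.40 ± 0.71 at 0.15 pmol (n = 3) and -1.82 ± 1.28 at 0.5 pmol (n = 6). The mean of control positions 110 and 154 at these amounts was 0.13 ± 0.64, -2.25 ± 0.43 and -2.31 ± 2.09. At 0.5 pmol each of the 4 gene positions was also called lower, by 1.10 to 1.59, and at 0.15 pmol none was. The position most like 154 was gene position 242 (r = 0.92), and the position most like 110 was 154 (r = 0.88), both over 51 arrays. When each print column was centred on its other spots, the difference of position 110 shrank to -1.28 at 0.15 pmol (adjusted p = 0.022) and -1.13 at 0.5 pmol (adjusted p = 0.0089). For position 154 these values were -1.46 (adjusted p = 0.0214) and -0.86 (adjusted p = 0.0606).

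At 1 pmol positions 110 and 154 parted. Position 110 read -1.09, -1.89 and -0.99, while position 154 read 0.86, 0.77 and 0.63. The fall of position 110 from 0 pmol was -1.51 ± 0.60 (SE, adjusted p = 0.0288) in a comparison where 59.7% of all position levels were called, and it was lost without replicate 2 at 1 pmol (-1.22, adjusted p = 0.134). The difference of position 154, 0.68, did not pass the test. Of the 4 positions in column 22, 110 was negative on all 3 of these arrays and 66 (0.55, 0.11 and 0.89) and 154 were positive on all 3.

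Positions 45 and 89 in column 1 formed a close pair (r = 0.93, rho = 0.91 over 51 arrays), and position 45 was as close to gene position 1 in the same column (r = 0.93). Both were slightly negative on most arrays, 39 of 51 for position 45 and 35 of 51 for position 89. Gene position 1 was negative on 48 of 51. At 0 pmol position 45 read from -0.75 to 0.55 with a median of -0.60, and position 89 from -0.77 to 0.10 with a median of -0.55. At 0.5 pmol position 45 read -0.66, -0.17 and -0.30 in replicates 1 to 3 and -1.89, -2.17 and -3.80 in replicates 4 to 6. Its difference of -1.18 ± 0.36 (SE) passed the test (adjusted p = 0.0161) in a comparison where 21.6% of position levels were called. It was lost without replicate 6 at 0.5 pmol (-0.72, adjusted p = 0.0957), was -0.40 with replicates 1 to 3 alone, and had the opposite sign without centring (0.85) and with print columns centred (0.19).

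At 1 pmol, where 59.7% of all position levels were called, position 89 read 1.02, 1.14 and 0.30, above every 0 pmol array. Its difference of 1.22 ± 0.38 (SE) passed the test (adjusted p = 0.00657). With print columns centred that difference was -0.03. Position 45 read 0.56, 0.55 and 0.46 there and was not called. At 2 pmol both were negative on all arrays, at -0.82, -0.69 and -1.10 for position 45 and at -1.01, -1.0 and -1.28 for position 89, and neither difference passed the test. At that amount 8 of the 9 control positions were not called, and the mean of the 4 gene positions of column 22, -1.11 ± 0.29 (SD, n = 3), was close to that of the 4 control positions of the column, -1.15 ± 0.34.

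Position 177 had levels on both sides of 0. It was positive on 32 of 51 arrays, with a median of 0.12 and a range from -2.15 to 1.63. At 0 pmol replicates 1 to 3 read 0.37, 0.33 and 0.64 and replicates 4 to 6 read -0.83, -0.75 and -0.93. At 0.2 pmol it read 0.34, 1.61 and 1.57, and the difference of 1.37 ± 0.41 (SE) passed the test (adjusted p = 0.0125), while 17.6% of all position levels were called. That call was lost without replicate 2 or 3 at 0.2 pmol (1.15 and 1.17, adjusted p 0.113 and 0.0784), and against 0 pmol replicates 1 to 3 alone the difference was 0.73 (adjusted p = 0.353). At 1 pmol, where 59.7% of all position levels were called, it read 0.94, 0.67 and 0.75, a difference of 0.98 ± 0.41 (adjusted p = 0.036). This call was lost without any of the 3 arrays at 1 pmol or replicate 4, 5 or 6 at 0 pmol (0.84 to 1.04, adjusted p 0.0614 to 0.0941). At 2 pmol it read -1.05, -0.80 and -1.25, which was not called. The position most like it was Gapdh, at r = 0.53 over 51 arrays.

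Position 221 also had levels on both sides of 0. Its level was positive on 26 and negative on 24 of the 50 arrays with enough blocks, with a median of 0.06 and a range from -1.87 to 1.00. The position most like it was Pdia3 (r = 0.81, rho = 0.86), and no other position exceeded r = 0.48 with it. The 0 pmol arrays read -1.84, -1.64 and -1.45 in replicates 1 to 3 and 0.62, 0.82 and 0.81 in replicates 4 to 6. The lowest level, -1.87, was on an array at 0.5 pmol, where replicates 4 to 6 had a mean of -1.08. Pdia3 at 0 pmol ranged only from -0.42 to 0.71. The values at 0.025 pmol were 0.20, 1.00 and 0.75 and those at 2 pmol -0.17, -0.20 and -0.52. No difference from 0 pmol was called at any amount, with a 0 pmol mean of -0.45 ± 1.32 (SD, n = 6) that averages both sets of replicates. The direction depended on which 0 pmol arrays were used. Against 0 pmol replicates 1 to 3 alone, position 221 was higher at all 10 amounts, by 0.98 to 2.30 (adjusted p 0.0274 or lower). Against 0 pmol replicates 4 to 6 alone it was lower at 0.5 pmol (-1.41, adjusted p = 0.000567), 1 pmol (-1.17, adjusted p = 0.01) and 2 pmol (-1.05, adjusted p = 0.043).

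Over the 45 spiked arrays the slope of the level on log2 of the amount passed the test at positions 177 and 221, both downwards, while 25.6% of all position levels had a slope past the threshold. Position 177 fell by 0.18 ± 0.06 (SE) per doubling (adjusted p = 0.0217), and position 221 by 0.12 ± 0.04 (adjusted p = 0.0294). Pdia3 had a slope of -0.13 (adjusted p = 0.00332). Position 177 lost the call without replicate 2 at 0.025 pmol (-0.15, adjusted p = 0.059), and position 221 without replicate 2 or 3 at that amount (-0.10 and -0.11, adjusted p 0.0781 and 0.066). Without centring the slopes were -0.10 and -0.02, and neither passed the test (adjusted p = 0.712 and 0.852). No control position was called at 0.025, 0.05, 0.1 or 0.25 pmol by limma, where 0%, 0%, 2.27% and 9.09% of all position levels were called. At an unadjusted p under 0.05 the counts of control positions there were 3, 2, 0 and 1. The share of all positions at that looser threshold was not computed, so these counts have nothing to be read against.

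Replicates 1 to 3 and 4 to 6 of an amount did not overlap at 7 of the 9 control positions for 0, 0.05, 0.1, 0.5 and 0.75 pmol, and at 1 of 9 for 0.25 pmol. Over all positions of a block these replicates did not overlap for 58.5% at 0 pmol, 39.8% at 0.05 pmol, 32.4% at 0.1 pmol, 45.5% at 0.5 pmol, 19.3% at 0.75 pmol and 9.66% at 0.25 pmol. The separation was therefore not confined to the control positions at any of these amounts. At 0.25 pmol the shares of control positions and of all positions were alike. At the other amounts it held for a smaller share of all positions than of control positions. The labels name no batch that goes with it. At 0 pmol they were apart at positions 22, 66, 110, 154, 177, 221 and 309, with replicates 4 to 6 higher at 22 (by 3.27), 66 (by 0.57) and 221 (by 2.40) and lower at the other 4. Positions 45 and 89 overlapped there. Since the 0 pmol arrays enter all 10 comparisons, each difference above carries this division. Calls of levels were not particular to the control positions. The called share of control positions was above that of all positions at some amounts and below it at others. It was above at 0.5 pmol (33.3% against 21.6%) and 2 pmol (11.1% against 7.39%), for example. It was below at 0.25 pmol (0% against 9.09%) and 1 pmol (44.4% against 59.7%). Of the 12 differences of control levels that passed the test, 5 kept the call against 0 pmol replicates 4 to 6 alone and 9 against 0 pmol replicates 1 to 3 alone. With the array sets in the model all 12 lost it. Of the amounts with a called difference, only 0.75 pmol shares a set with the 0 pmol arrays. The other called amounts meet 0 pmol in that model only through further amounts, so the loss does not show that their differences are absent. Without centring the 3 that kept the call were position 309 at 0.75 and 2 pmol and position 22 at 1 pmol.

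Probe by probe, position 309 gave most of the control calls for the 0 pmol mean and at 0.05, 0.75 and 2 pmol. At 0 pmol 80 control probes differed from 0, 50 positive and 30 negative, against 24.1% of all probes. All 48 probes of position 309 were among the positive ones and 18 of the 48 of position 22 among the negative ones. The highest were position 309 in block 47, at 6.07 ± 0.77 (SD, n = 6, limma adjusted p = 1.2e-07), and in block 5, at 5.99 ± 1.30 (adjusted p = 3.51e-07). The lowest were position 22 in block 41, at -3.67 ± 2.10 (adjusted p = 0.000858), and in block 10, at -3.62 ± 2.00 (adjusted p = 0.00703).

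At 0.025 pmol 14 of the 415 tested were called, all lower and 9 of them at position 110, against 4.75% of all probes. The lowest was position 154 in block 35, by -4.61 ± 1.09 (SE, adjusted p = 0.00611), measured on 2 of 3 arrays. At 0.05 pmol 35 were called against 4.31% of all probes, and 32 of these were position 309, lower. Its lowest was block 9, at 1.5 against 5.99 (adjusted p = 0.0057). The only higher probe, position 221 in block 45, was at 1.07 against -1.79 (adjusted p = 0.0441), with only replicates 1 to 3 of the 6 arrays at 0 pmol measured. The 0 pmol level of position 221 was -1.84 to -1.45 in those replicates and 0.62 to 0.82 in replicates 4 to 6. The call was lost without any of 7 single arrays (2.61 to 3.01, adjusted p 0.0501 to 0.134). At 0.1 pmol 1 control probe was called against 5.66% of all probes, position 221 in block 5 (2.29, adjusted p = 0.0424), which was lost without any of 8 single arrays (adjusted p 0.0502 to 0.139) and was -0.23 when values at the upper limit were kept. The 0 pmol values of that probe came from replicates 1, 2, 3 and 6.

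At 0.15 pmol most calls were in column 22. There 66 of 428 control probes were called, all lower, 30 at position 154 and 28 at position 110, against 10.7% of all probes in both directions. The lowest was position 22 in block 35, at -7.74 ± 0.16 (SD, n = 3) against -2.0 ± 2.24 on 4 arrays (adjusted p = 0.0313). Those 4 included replicates 4 to 6 at 0 pmol, the higher ones at position 22, and the level of the position was not called at 0.15 pmol. At 0.2 pmol 16 of 428 were called against 8.18%, of which 12 were position 177, higher. The highest was block 29, at 2.60 against -0.11 (adjusted p = 0.0418, with a difference of -0.32 when values at the upper limit were kept), and the lowest position 66 in block 2, at -3.80 against -0.34 (adjusted p = 0.0347). The lowest probe at 0.15 pmol and both at 0.2 pmol were lost when some single arrays were left out, with adjusted p up to 0.108, 0.23 and 0.133. At 0.25 pmol 5 were called against 12% of all probes, from position 45 in block 33 (-3.16, adjusted p = 0.00111) to position 221 in block 33 (1.30, adjusted p = 0.0315, lost without any of 6 single arrays, up to 0.101, and -0.13 when values at the upper limit were kept).

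At 0.5 pmol 141 control probes were called, 32.6% of them, every one of them lower, against 25% of all probes. They were all 48 probes of position 110, 42 of position 154, 16 each of positions 45 and 66, 13 of position 89, 4 of position 309 and 2 of position 177. The lowest was position 45 in block 9, at -2.26 ± 0.91 (SD, n = 6) against 1.88 ± 2.56 on 4 arrays (adjusted p = 1.57e-05). Other probes at this amount were called in both directions, 1114 higher and 860 lower.

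At 0.75 pmol 48 control probes were called against 7.55% of all probes, 45 of them position 309, lower. The lowest was block 38, at 0.95 ± 3.34 (SD, n = 6) against 5.63 ± 1.39 (adjusted p = 0.00631), and the highest was position 221 in block 45, at 1.93 against -1.79 (adjusted p = 0.00435). The 0 pmol values of that last probe, used here and at 1 pmol, came from replicates 1 to 3 alone, the low ones at position 221. At 1 pmol only 328 control probes could be tested, of which 41 were called, 33 higher and 8 lower, against 40.6% of all probes. The highest was position 221 in block 45 (3.28 ± 1.08, SE, adjusted p = 0.0153, on 2 arrays), and the lowest position 110 in block 17 (-3.57 ± 0.78, adjusted p = 0.000271). At 2 pmol 52 of 430 were called, all lower and 41 of them position 309, against 15.2% of all probes. The lowest were blocks 31 and 35 of position 309, at 0.91 ± 0.53 and 0.99 ± 0.63 (SD, n = 3) against 5.64 ± 1.23 and 5.72 ± 1.10 (adjusted p = 0.00384 and 0.00316).

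The slope passed the test at 55 control probes, 12.7% of them, 13 upwards and 42 downwards, against 22.1% of all probes. Downward slopes were those of position 221 (21 probes), position 177 (18 probes) and 1 each at positions 45, 110 and 309. Upward slopes were 10 probes of position 22 and 3 of position 66. The steepest were block 13 of position 22 (0.95 per doubling, adjusted p = 0.00928) and block 14 of position 22 (0.80, adjusted p = 0.0435), and downwards block 11 of position 309 (-0.47, adjusted p = 0.035) and block 25 of position 177 (-0.37, adjusted p = 0.0143). Block 14 of position 22 and block 11 of position 309 lost their call without any of 21 and 7 single arrays, with adjusted p up to 0.0836 and 0.0808. When values at the upper limit were kept, 5 named calls besides those that changed sign were lost: position 221 in block 45 at 0.05, 0.75 and 1 pmol (adjusted p = 0.731, 0.304 and 0.592), position 66 in block 2 at 0.2 pmol (adjusted p = 0.117) and the slope of position 177 in block 25 (adjusted p = 0.18).

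The spread over the blocks differed between the members. Position 221 was the evenest: its SD over the blocks was 0.52 times the median SD of the other positions of the same array and lay below it on 45 of 50 arrays. Pdia3 had a ratio of 0.48 and lay below on 46 of 51. Position 309 had a ratio of 0.75 and Gapdh 0.84, while positions 45, 66 and 22 were wider than the other positions, at ratios of 1.06, 1.19 and 1.52. Position 89 (0.97) and position 154 (0.98) were close to the other positions. Most of the other positions carry a different gene in each block. The gene positions of the edges had ratios from 0.82 at position 330 to 1.19 at position 1.

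Spread also changed with the arrays. Position 221 had an SD of 0.35, 0.26, 0.34, 0.33, 0.27 and 0.18 at 0 pmol and of 0.19, 0.20 and 0.19 at 0.025 pmol. At 0.05 pmol it was 0.15, 0.17 and 0.14 in replicates 1 to 3 but 0.81, 0.76 and 0.92 in replicates 4 to 6, although the levels of these replicates overlapped. Position 22 had an SD of 2.10, 1.81 and 2.26 in replicates 1 to 3 at 0 pmol and of 0.99, 0.47 and 0.60 in replicates 4 to 6, so its wide arrays were those with a very negative level. The same held at 0.05 pmol, with 2.31, 1.81 and 1.82 against 0.75, 0.57 and 0.61. At 2 pmol it was 0.53, 0.52 and 0.66, below the other positions of those arrays (a median ratio of 0.65).

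Tested on log2 of the SD, 20 of 90 comparisons of a control position with 0 pmol passed the threshold. By amount this was 11.1% to 44.4% of control positions, against 23.3% to 86.9% of all positions. The control share was the higher only at 0.75 pmol. Over all positions the median difference in log2 SD was positive at every amount, from 0.097 at 0.75 pmol to 1.28 at 1 pmol. At 0.025 pmol position 110 was wider, at 1.07, 1.14 and 1.19 against 0.20 to 0.76 at 0 pmol, a ratio of 2.82 (limma adjusted p = 0.00301), and 27.3% of all positions were called. At 0.05 pmol positions 45 (ratio 0.59, adjusted p = 0.013) and 89 (0.63, adjusted p = 0.00901) were narrower, with 34.1% of all positions called. At 0.1 pmol the same positions were narrower (0.55 and 0.65, adjusted p = 0.00657 and 0.0205), with 23.3% called, and position 89 lost the call without replicate 1 or 2 at 0.1 pmol (adjusted p 0.0554 and 0.0606). Positions 45 and 89 had among the widest spreads of the column at 0 pmol, from 0.82 to 1.49 and from 0.70 to 0.93.

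At 0.15 and 0.2 pmol position 110 was wider (2.28 and 2.10 times, adjusted p = 0.0174 and 0.0346), with 28.4% and 31.2% of all positions called. At 0.25 pmol position 177 was wider (1.61 times, adjusted p = 0.0255), with 38.1% called, and at 0.5 pmol positions 110 and 309 were wider (1.70 and 1.68 times, adjusted p = 0.0431 and 0.027), with 51.1% called. These 5 calls were lost without any of 4 to 7 single arrays, with adjusted p from 0.0508 to 0.157. At 0.75 pmol positions 22, 45, 66 and 154 were narrower, at ratios from 0.47 to 0.62, with 38.6% of positions called. Of these, positions 45 (adjusted p = 0.00984) and 154 (adjusted p = 0.015) kept the call without any single array, while positions 22 and 66 did not (adjusted p up to 0.0817).

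At 1 pmol, where many spots were missing, positions 110, 177, 221 and 309 were wider by 3.18, 2.34, 4.03 and 2.22 times, and 86.9% of all positions were called. The median difference in log2 SD there was 1.28 over all positions and 0.87 over the control positions. At 2 pmol positions 45 and 66 were narrower (0.53 and 0.49 times, adjusted p = 0.00889 and 0.0371), with 50.6% of positions called, and position 45 lost the call without replicate 1 at 2 pmol (adjusted p = 0.256) and position 66 without any of 5 single arrays (adjusted p up to 0.121). The slope of log2 SD on log2 amount passed the test at 4 control positions, down at 22 and 66 and up at 89 and 177, against 26.1% of all positions. Positions 22 (0.87 times per doubling, adjusted p = 0.0198) and 177 (1.11 times, adjusted p = 0.00527) kept this call without any single array, and positions 66 and 89 lost it without any of 26 and 17 single arrays.

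Averaged over the 51 arrays, 6 of the 9 positions varied less from block to block than most positions did. The SD of the 48 block means was 0.13 at position 221, 0.19 at positions 154 and 45, 0.20 at position 309, 0.22 at position 89 and 0.23 at position 177. These were among the 16 smallest of all positions, whose median was 0.44. Pdia3 was the smallest of all (0.09), and Gapdh ranked 17 (0.23). Edge position 330, which holds different genes from block to block, ranked 8 (0.20). The other edge gene positions ranked from 53 (position 198) to 83 (position 286). Position 309 ranged over the blocks from 2.87 in block 42 to 3.98 in block 47, with no negative block, and position 154 from -1.25 to -0.44 with no positive one. Position 110 was less even and ranked 55 (SD 0.29, from -1.84 in block 31 to -0.23 in block 46), though negative in all 48 blocks.

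Positions 66 and 22 did not hold 1 level over the slide, with SDs of 0.60 and 0.74 that ranked 120 and 138 from the smallest. At position 22 blocks 19 and 20 averaged 0.12 and 0.14, on 40 and 42 arrays, while the other 46 blocks lay between -3.64 and -1.91. Without these blocks the SD of the block means was 0.42. At position 66 block 20 averaged 0.31 on 40 arrays, and the other 47 blocks lay between -2.95 and -0.47. The lowest blocks of position 66 were 10, 18, 26 and 34, each 8 blocks after the one before, at -2.95 to -2.53, against -2.30 or higher in the other 44. At position 177 the blocks numbered 1, 5, 9 and so on in steps of 4 had a median of 0.41 and the other 36 blocks a median of 0.01, and the former were higher on 40 of 51 arrays. The gap of 0.39 between the mean of these 12 blocks and the mean of the rest ranked 2 among all positions, after Gapdh (0.47), the position whose levels were most like those of position 177. These blocks were singled out after their values were seen, and no test was made.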

How the data were processed

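Each deposited value is the log2 ratio of a spot, and the authors' array medians are not at 0. Scanner, background subtraction, filter, normalisation, log base and numerator channel are not given in the sources used here. The base was taken from the most frequent values, which are log2 of small whole-number ratios. Deposited values of 16.61, the upper limit, were set to missing (1074, of which 116 at control spots). The members, tests and alternatives were chosen with earlier results of these data known.

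Each array was centred on the median of its other spots, and pair spots were averaged. Probes, position levels and log2 of the SD over the blocks were fitted with limma 3.58.1 in R 4.3.3, each over the whole table: 1 mean per amount over 51 arrays, at least 2 measured arrays per group, empirical Bayes moderation, two-sided tests, and Benjamini-Hochberg adjustment over the table with a threshold of 0.05. The slope on log2 amount used the 45 spiked arrays. Counts, ranks and pair differences were computed with Python 3.11.15. All 9 positions are named. Single probes are named as the 2 highest and 2 lowest called at 2 pmol, for the 0 pmol mean and for the slope, and as the highest and the lowest called at each other amount. The 2 most alike positions were taken by Pearson r over the arrays. The number of arrays limits the precision. The fits were tested on simulated data. The alternatives changed the centring, the array scale, the pair spots, the upper limit, the missing values, the block summary, the moderation, the replicates, and the array sets (6 groups by Ward clustering on other probes).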

Additional observations from a re-analysis of the deposited data

Results flagged for a closer look

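Of 108 groups of 6 arrays in which a control position's level or SD over blocks was examined for a lone array, 2 had one, where chance gives about 1 in 20. At position 45 the SD over blocks of replicate 1 at 0.75 pmol was 0.38, and the other 5 arrays lay between 0.65 and 0.81. At position 66 the SD over blocks of replicate 5 at 0.75 pmol was 0.91, and the other 5 lay between 0.44 and 0.61.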

How the results depend on the processing

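Alternatives were tried on 8 counts of calls, and on 231 differences of named positions and probes: 3026 of 3501 such values kept their side of the threshold, 272 lost it, 160 gained it and 43 changed sign. Without any single array, none of 11637 values changed sign. With 1 array left out the counts over the 10 amounts ran from 326 to 445 for probes (419 with all arrays), 9 to 14 for levels (12) and 15 to 21 for spread (20). The counts for the 0 pmol mean ran from 64 to 90 for probes (80) and 1 to 2 for levels (2, with 1 without replicate 1, 2 or 3 at 0 pmol). The slope counts ran from 24 to 76 for probes (55, with 24 without replicate 2 at 0.025 pmol and 32 without replicate 3 at 2 pmol), 0 to 3 for levels (2, with 0 and 1 without replicate 2 or 3 at 0.025 pmol) and 2 to 4 for spread (4, with 2 without any of 11 arrays: replicate 2 at 0.025 and 0.5 pmol, replicates 1 to 3 at 0.05 and 0.1 pmol, replicate 6 at 0.75 pmol, replicate 1 at 1 pmol and replicate 3 at 2 pmol).

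The counts that moved by more than 1.5 times were these. Without centring, 263 probes, 426 probes and 9 levels for the 0 pmol mean, and 28 probes and 1 level for the slope. With only probes measured on all arrays, 221 probes, 5 levels and 3 spreads, 45 probes and 1 level for the 0 pmol mean, and 14 probes, 0 levels and 0 spreads for the slope, since fewer were tested. With replicates 1 to 3 only, 1345 probes and 47 levels, 164 probes and 5 levels for the 0 pmol mean, and 191 probes and 5 levels for the slope. With replicates 4 to 6 only, 426 probes and 11 levels against 230 and 4 with all replicates of those amounts, and 0 slopes of any kind. With arrays scaled to the same spread, 12 spreads, and 33 probes and 1 level for the slope. With the first spot only, 12 spreads. With the median absolute deviation over blocks, 6 spreads and 1 slope. With print columns centred, 273 probes and 7 levels. With 0 pmol replicates 1 to 3 only, 666 probes and 21 levels. With array sets drawn without the most extreme probes in the model, 37 probes, 0 levels, 9 spreads and 0 slopes. Within the set that holds the 0 pmol arrays, 32 probes and 3 spreads (49 and 6 with all arrays of those amounts). With the planned array sets, 0 levels and 2 spreads for the slope. Those sets could not be fitted against 0 pmol, whose arrays share no set with a spiked one. In the sets drawn without the most extreme probes, the 0 pmol arrays share a set only with replicates 4 to 6 at 0.1 pmol and replicates 1 to 3 at 0.75 pmol. The alternatives with print columns, with some 0 pmol replicates only, with sets drawn without the most extreme probes and within 1 set were chosen after seeing the data. The causes were not tested, apart from the smaller number tested on all arrays. The number of arrays, 3 to 6 per amount, limits every comparison.

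Signs changed as follows. Without centring, position 45 at 0.5 pmol was 0.85, 89 was 1.32, 177 was 1.77 and 221 was 1.81, and the 0 pmol means of 110 and 154 were -1.77 and -1.87. With print columns centred, 45 at 0.5 pmol was 0.19, and 89 and 177 at 1 pmol were -0.032 and -0.27. With sets drawn without the most extreme probes, 177 at 1 pmol was -0.66, the log2 spread of 309 at 0.5 pmol -0.34 and the slope of 22 in block 14 -0.046. With replicates 1 to 3, 66 was 0.87 at 0.25 pmol and 0.89 at 0.5 pmol, 22 was 3.39 and 221 was 1.40 at 0.5 pmol. The log2 spread was -1.02 for 221 at 0.05 pmol, -1.67 for 22 and -1.43 for 110 at 0.25 pmol, and -0.24, -0.61 and -0.59 for 110 at 0.5, 0.75 and 2 pmol. With replicates 4 to 6, 22 at 0.25 pmol was -2.82, 221 at 0.75 pmol -0.89 and its 0 pmol mean 0.75. The log2 spread was then 0.91 for 66 at 0.25 pmol, and 1.38 for 22 and 1.22 for 66 at 0.5 pmol, with slopes of 0.18 and 0.26, and the slopes of 22 in blocks 13 and 14 were -0.85 and -1.10. With 0 pmol replicates 1 to 3 only, 221 at 0.5 pmol was 0.98 and the log2 spread of 110 there -0.058. With 0 pmol replicates 4 to 6 only, 221 was -1.17 at 1 pmol, -1.05 at 2 pmol and 0.75 for the 0 pmol mean. With the planned sets, the slope of the log2 spread of 66 was 0.038 and that of the level of 22 in block 14 -0.033. With the upper limit kept, the log2 spread of 221 at 2 pmol was 2.52, and 221 in block 5 at 0.1 pmol, 177 in block 29 at 0.2 pmol and 221 in block 33 at 0.25 pmol were -0.23, -0.32 and -0.13.

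The replicate numbers do not pair the arrays: deviations of same-numbered arrays of different amounts correlated at a median of 0.002 over 210 pairs, and 10 of 51 arrays correlated best with their own number. With the number as a replicate block the counts were 401 probes, 10 levels and 28 spreads over the amounts, 79 probes and 2 levels for the 0 pmol mean, and 54 probes, 2 levels and 3 spreads for the slope.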
